A study of Mus musculus with 12 samples.

Results

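Cartilage identity and matrix genes were followed across 4 sorted stromal populations of mouse bone, as 10 genes chosen by name from 49585 in the count files. They were the transcription factors Sox9, Sox5 and Sox6 and the matrix or secreted proteins Acan, Hapln1, Matn1, Matn3, Cnmd, Chad and Prg4. RNA was sequenced from 12 libraries, 3 in each population and each made from 2000 sorted cells of male wild-type C57BL/6 mice aged 8 to 10 weeks, at steady state. All populations were sorted as CD45-Ter119-CD31- cells. Itga8+ MSCs and Itga8- BLCs (bone-lining cells, given as osteoblasts in the labels) split the Alcam+Sca-1- cells by Itga8, and Sca-1+ MSCs were Alcam-Sca-1+. These 3 came from bone fragments of femur, tibia and iliac bone digested with collagenase after the marrow was flushed out. CD51+CD140a+ MSCs came from the flushed marrow of femur and tibia, digested with Accumax, so that marrow source and enzyme cannot be told apart from the population in any comparison with them. The sources used here do not say whether the 3 libraries of a population came from separate animals, so p-values measure the spread between these libraries.

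Chondrocytes, the cells of cartilage, are held in their fate by Sox9, which acts together with Sox5 and Sox6 on enhancers of cartilage matrix genes. The matrix they secrete is a network of collagen II, IX and XI fibrils filled with aggrecan (Acan), which is bound to hyaluronan by link protein (Hapln1). Matrilins (Matn1, Matn3) and chondroadherin (Chad) join the network and the cell surface, chondromodulin (Cnmd) inhibits vessel growth, and lubricin (Prg4) coats the joint surface.

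Total counts were 17580677 to 31332475 per library, and all 10 genes passed the filter for testing (at least 0.5 CPM, counts relative to library size, in at least 1 library), as did 18648 genes in all. A limit of 3 counts corresponded to 0.0820 to 0.180 CPM and covers counting error only. The genes used for sorting were at levels that followed the gates in part. Ly6a (Sca-1) was at 610.9 to 658.7 CPM in Sca-1+ MSCs and at most 35.73 CPM in any other library. Itga8 was at 35.16 to 198.9 CPM in Itga8+ MSCs, 0.3984 to 4.171 CPM in Itga8- BLCs and 53.12 to 82.93 CPM in CD51+CD140a+ MSCs. The last range lay within the first, while the study reported substantially less Itga8 in CD51+CD140a+ than in Itga8+ MSCs by flow cytometry and qPCR. Itgav (CD51) and Pdgfra (CD140a) did not set CD51+CD140a+ MSCs apart from Sca-1+ MSCs, at 121.1 to 194.6 against 125.7 to 150.3 CPM for Itgav and 681.7 to 866.9 against 734.5 to 1019 CPM for Pdgfra. In the Alcam+ populations Itgav was at 12.67 to 118.2 CPM and Pdgfra at 5.35 to 148 CPM. Alcam reached 1.286 to 5.815 CPM in both Alcam+ populations and at most 0.2213 CPM elsewhere. Replicate 2 of Itga8+ MSCs stood apart from replicates 1 and 3, with Col2a1 at 7596 CPM against 60210 and 105500 CPM, and with summed myeloid and lymphoid markers at 11830 CPM against 5657 and 2296 CPM and summed erythroid markers at 1555 CPM against 130.1 and 117.5 CPM. In bulk libraries, fewer cells of a type and less RNA per cell cannot be told apart.

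The promoters of the 3 members with the highest level per unit length in the Alcam+ populations are shown. Chad was high in Sca-1+ MSCs, where Cnmd and Matn3 were low, and a link of the windows to these levels was not tested. They are the 250 bases before the start site listed in RefSeq, on GRCm38.p6. Chad lies on the plus strand, window chr11:94564797-94565046. Matn3 lies on the plus strand, window chr12:8947679-8947928, and Cnmd on the minus strand, window chr14:79662184-79662433. Capitals mark TATAAA, the TATA box letters.
Chad: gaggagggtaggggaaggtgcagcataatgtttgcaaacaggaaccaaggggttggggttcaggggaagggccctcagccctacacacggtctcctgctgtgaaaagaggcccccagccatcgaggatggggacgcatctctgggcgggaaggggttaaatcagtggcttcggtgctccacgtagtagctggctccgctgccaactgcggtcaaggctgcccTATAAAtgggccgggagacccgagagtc
Matn3: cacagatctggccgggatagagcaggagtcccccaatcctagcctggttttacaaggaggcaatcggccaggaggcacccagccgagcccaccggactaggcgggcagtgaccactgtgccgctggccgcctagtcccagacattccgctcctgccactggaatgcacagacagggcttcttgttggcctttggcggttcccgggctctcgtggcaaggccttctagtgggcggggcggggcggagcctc
Cnmd: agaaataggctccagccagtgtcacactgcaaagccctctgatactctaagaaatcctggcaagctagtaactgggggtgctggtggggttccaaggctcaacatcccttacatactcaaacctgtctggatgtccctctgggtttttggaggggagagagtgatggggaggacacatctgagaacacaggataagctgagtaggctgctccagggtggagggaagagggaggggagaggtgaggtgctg
TATAAA was found in the Chad window from position -28 to position -23 relative to the start site, on the gene's strand, and on neither strand of the Matn3 and Cnmd windows. It occurs on either strand in 12.4% of the 32851 windows of all genes. The SOX core letters AACAAT and ACAAAG, searched on both strands, were in none of these 3 windows and in 9.42% and 16.5% of all windows. GC content was 60.4% for Chad, 65.2% for Matn3 and 54.0% for Cnmd, beside a median of 52.4% over all windows. Windows were found for 8 of the 10 members (13 windows, since Sox6 has several start sites), and a match of letters is a description of these windows.

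The members fell into 3 patterns. Sox9, Sox5, Acan, Hapln1, Matn1, Matn3 and Cnmd were higher in both Alcam+ populations than in Sca-1+ MSCs, while Prg4 was highest in Sca-1+ MSCs. Chad and Sox6 were higher in each of the 3 bone fragment populations than in CD51+CD140a+ MSCs, with no call between those 3 except for Sox6 between the Alcam+ populations by library totals alone. In CD51+CD140a+ MSCs the 10 genes together made up 200.1, 215.1 and 310 CPM, against 6730 to 9544 CPM in Sca-1+ MSCs, 13040 to 17480 CPM in Itga8- BLCs and 20160 to 26940 CPM in Itga8+ MSCs. The plot of levels by library shows these patterns gene by gene.

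**Figure D1:**
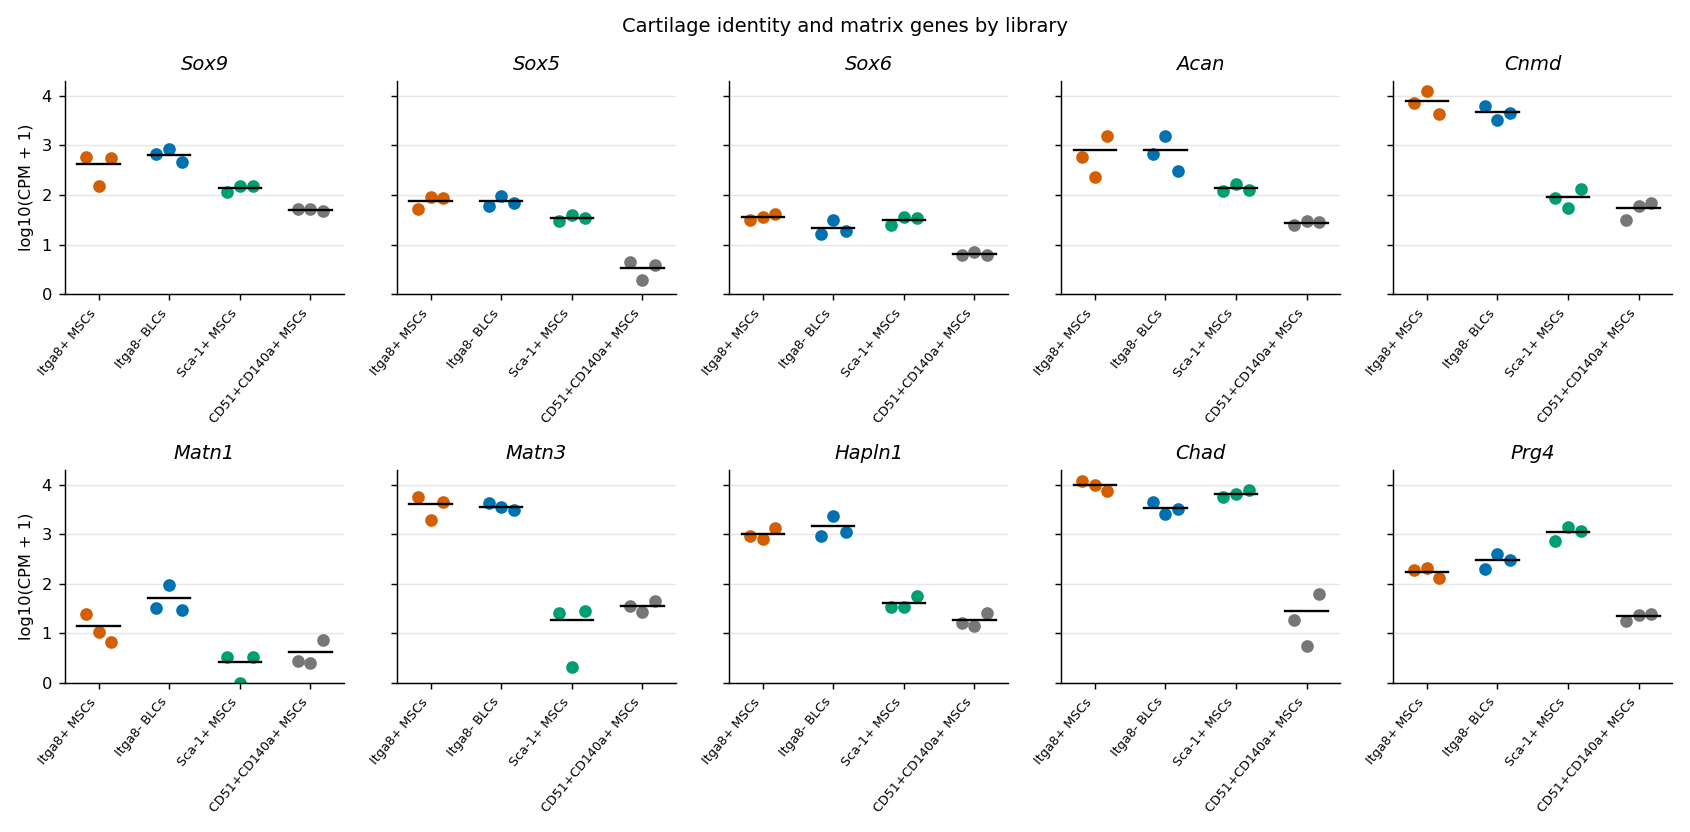
Level of each member in each library, as log10(CPM + 1) on the vertical axis, with 3 points (replicates 1 to 3 from left to right) per population and a bar at the mean. The Sca-1+ points stand with the low group for Cnmd and Matn3, with the high group for Chad, and above all other points for Prg4.

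Sox9 (chr11:112782224-112787760, plus strand, GRCm38), the factor that chondrocyte identity depends on, had 589.3, 149.6 and 557.2 CPM in the 3 Itga8+ libraries (432 ± 245, SD, n = 3) and 657.8, 830.1 and 455.7 CPM in the Itga8- libraries (647.9 ± 187). In Sca-1+ MSCs it was at 116, 153.8 and 148.4 CPM (139.4 ± 20.4), and in CD51+CD140a+ MSCs at 50.24, 51.68 and 45.81 CPM (49.25 ± 3.06). Replicate 2 of Itga8+ MSCs fell within the range of Sca-1+ MSCs, and all other Alcam+ libraries lay above it. The edgeR quasi-likelihood test over all genes, two-sided and with the false discovery rate (FDR) after Benjamini and Hochberg, gave a log2 fold change of 1.63 ± 0.44 (SE) for Itga8+ MSCs over Sca-1+ MSCs, with an FDR of 0.0263. For Itga8- BLCs over Sca-1+ MSCs it was 2.22 ± 0.44, with an FDR of 0.00475. Sca-1+ MSCs exceeded CD51+CD140a+ MSCs by 1.501 ± 0.43 on the log2 scale (FDR 0.0324), a call lost without replicate 3 of CD51+CD140a+ MSCs (log2 fold change 1.45, FDR 0.109). Itga8+ MSCs and Itga8- BLCs were neighbours in the order that did not differ beyond their spread (-0.58 ± 0.43, FDR 0.692).

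Sox5 (chr6:143828425-144781977, minus strand), a partner of Sox9 without an activation domain of its own, was at 52.1, 91.31 and 86.38 CPM in Itga8+ MSCs and at 60.11, 95.14 and 69.19 CPM in Itga8- BLCs. Sca-1+ MSCs had 28.55, 39.07 and 32.75 CPM, and CD51+CD140a+ MSCs had 3.415, 0.9746 and 2.899 CPM. Every Alcam+ library was above every Sca-1+ library, and every Sca-1+ library above every CD51+CD140a+ library. Over CD51+CD140a+ MSCs the fold was 31.5 in Itga8+ MSCs (log2 4.97 ± 0.49, FDR 2.14e-05) and 13.7 in Sca-1+ MSCs (log2 3.78 ± 0.46, FDR 0.000112). The smaller step to Sca-1+ MSCs was 1.19 ± 0.41 on the log2 scale for Itga8+ MSCs (FDR 0.0712) and 1.16 ± 0.41 for Itga8- BLCs (FDR 0.0655). The first was lost without replicate 2 or 3 of Itga8+ MSCs (FDR 0.14 and 0.109) and the second without replicate 2 or 3 of Itga8- BLCs (FDR 0.16 and 0.104), and both without any single Sca-1+ library (FDR 0.118 to 0.196). Both were also lost under the replicate block (FDR 0.136 and 0.116), and the second with library totals alone (log2 fold change 0.93, FDR 0.113). The first was lost as well with replicate 2 of Itga8+ MSCs and replicate 3 of Itga8- BLCs both left out (FDR 0.11). The exons of Sox5 share 9.25% of their bases with Sox5os1 on the opposite strand, and the strand setting of the counting is not given in the sources used here.

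Sox6 (chr7:115470872-116038796, minus strand), the close relative of Sox5, was at 31.07, 35.01 and 41.25 CPM in Itga8+ MSCs and at 24.34, 34.69 and 33.64 CPM in Sca-1+ MSCs. Itga8- BLCs had 15.14, 30.26 and 17.45 CPM, and CD51+CD140a+ MSCs had 5.164, 6.163 and 5.058 CPM. Its level thus overlapped between Sca-1+ MSCs and each Alcam+ population, with a log2 difference of 0.21 ± 0.31 for Itga8+ MSCs (FDR 0.664) and -0.56 ± 0.31 for Itga8- BLCs (FDR 0.224). The step to CD51+CD140a+ MSCs passed the test in each case, by 2.71 ± 0.33 for Itga8+ MSCs (FDR 0.000108), 1.94 ± 0.32 for Itga8- BLCs (FDR 0.000938) and 2.499 ± 0.33 for Sca-1+ MSCs (FDR 0.000208). Itga8+ libraries were all above Itga8- libraries, and the difference of 0.77 ± 0.31 on the log2 scale had an FDR of 0.323 (0.0939 with library totals alone). For none of the 3 factors was the difference between Itga8+ MSCs and Itga8- BLCs called, except for Sox6 under that scaling.

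Acan (chr7:79053483-79115099, plus strand), the large chondroitin sulfate proteoglycan, varied more than 4-fold among the libraries of each Alcam+ population, with 589.6, 235.6 and 1552 CPM in Itga8+ MSCs (792.3 ± 681) and 659.9, 1522 and 300.4 CPM in Itga8- BLCs (827.5 ± 628). It was at 118.5, 167.7 and 127.5 CPM in Sca-1+ MSCs and at 23.8, 29.21 and 27.32 CPM in CD51+CD140a+ MSCs. The 3 levels did not overlap. Itga8+ MSCs exceeded Sca-1+ MSCs 5.75-fold (log2 2.52 ± 0.66, FDR 0.0236), and Sca-1+ MSCs exceeded CD51+CD140a+ MSCs 5.15-fold (log2 2.37 ± 0.65, FDR 0.0263). Itga8- BLCs exceeded Sca-1+ MSCs 6-fold (log2 2.59 ± 0.66, FDR 0.0165). Without replicate 3 of Itga8+ MSCs the first of these became 1.55 (FDR 0.066), and the log2 difference of Itga8+ from CD51+CD140a+ MSCs went from 4.89 to 3.95. Without replicate 2 of Itga8- BLCs the third became 1.76 (FDR 0.0583), and the log2 difference of Itga8- BLCs from CD51+CD140a+ MSCs went from 4.95 to 4.16.

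Hapln1 (chr13:89539796-89611652, plus strand), the link protein that stabilises aggrecan on hyaluronan, was at 899.3, 787.2 and 1360 CPM in Itga8+ MSCs and at 938.9, 2283 and 1086 CPM in Itga8- BLCs. The Sca-1+ libraries had 32.37, 33.57 and 56.6 CPM and the CD51+CD140a+ libraries 15.46, 13.24 and 25.23 CPM. Unlike Acan, Hapln1 had its main step between the Alcam+ populations and Sca-1+ MSCs, 24.9-fold for Itga8+ MSCs (log2 4.63 ± 0.47, FDR 0.000132) and 35.1-fold for Itga8- BLCs (log2 5.13 ± 0.48, FDR 5.45e-05). The step from Sca-1+ to CD51+CD140a+ MSCs was 2.27-fold (log2 1.18 ± 0.41, FDR 0.0726), and leaving out replicate 2 or 3 of Sca-1+ MSCs or replicate 1 or 2 of CD51+CD140a+ MSCs ended that call (FDR 0.103, 0.277, 0.202 and 0.223).

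Matn3 (chr12:8947929-8972028, plus strand), a matrilin found in cartilage, was at 5558, 1960 and 4446 CPM in Itga8+ MSCs (3988 ± 1843) and at 4242, 3468 and 3104 CPM in Itga8- BLCs (3605 ± 581). Sca-1+ MSCs had 24.79, 1.068 and 27.6 CPM, and CD51+CD140a+ MSCs had 35.16, 26.29 and 43.91 CPM. No Alcam+ library came near the others, and replicate 2 of Sca-1+ MSCs was far below its own group. The fold over Sca-1+ MSCs was 224 in Itga8+ MSCs (log2 7.81 ± 1.01, FDR 0.000483) and 202 in Itga8- BLCs (log2 7.66 ± 1.01, FDR 0.000357). Sca-1+ and CD51+CD140a+ MSCs did not differ beyond their spread (-0.98 ± 0.76, FDR 0.474).

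Matn1 (chr4:130944385-130955475, plus strand), the matrilin known as cartilage matrix protein, had its highest level in Itga8- BLCs, at 32.07, 92.87 and 28.66 CPM. The Itga8+ libraries had 23.7, 9.401 and 5.662 CPM, the Sca-1+ libraries 2.379, 0 and 2.39 CPM and the CD51+CD140a+ libraries 1.831, 1.519 and 6.218 CPM. Each Itga8- library was above each Itga8+ library, but the log2 difference of -1.99 ± 0.99 for Itga8+ MSCs over Itga8- BLCs had an FDR of 0.467, and it was -2.77 without replicate 1 of Itga8+ MSCs and -1.22 without replicate 2 of Itga8- BLCs. Against CD51+CD140a+ MSCs, Matn1 passed in Itga8- BLCs (4.01 ± 1.08, FDR 0.0151) and not in Itga8+ MSCs (2.02 ± 1.00, FDR 0.142). The latter log2 fold change was 1.24 without replicate 1 of Itga8+ MSCs and 2.94 without replicate 3 of CD51+CD140a+ MSCs. Its call in Itga8+ MSCs over Sca-1+ MSCs (3.02 ± 1.05, FDR 0.0721) was lost without replicate 1 of Itga8+ MSCs (log2 fold change 2.24, FDR 0.19) and without any single Sca-1+ library (FDR 0.11 to 0.135). It was also lost under the replicate block (FDR 0.125) and in a fit of only both populations (FDR 0.147). The log2 fold change of Itga8- BLCs over Sca-1+ MSCs was 5.005 ± 1.14 (FDR 0.00948), or 4.20 without their replicate 2, which also lowered the 4.01 over CD51+CD140a+ MSCs to 3.24. Leaving out replicate 3 of CD51+CD140a+ MSCs raised the latter to 4.93.

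Cnmd (chr14:79637690-79662170, minus strand), the membrane-bound precursor of chondromodulin, was at 7341, 12330 and 4406 CPM in Itga8+ MSCs (8024 ± 4004) and at 6227, 3268 and 4515 CPM in Itga8- BLCs (4670 ± 1486). It was at 87.53, 54.99 and 130.9 CPM in Sca-1+ MSCs and at 30.68, 58.65 and 69.55 CPM in CD51+CD140a+ MSCs. The populations formed a high pair and a low pair with no library between them. Itga8+ MSCs exceeded Sca-1+ MSCs 88.0-fold (log2 6.46 ± 0.57, FDR 5.81e-05), and Itga8- BLCs did so 51.2-fold (log2 5.68 ± 0.55, FDR 5.74e-05). Neither the difference within the high pair (0.78 ± 0.46, FDR 0.575) nor that within the low pair (0.78 ± 0.46, FDR 0.304) passed the test.

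Chad (chr11:94565047-94569127, plus strand), a leucine-rich repeat protein to which chondrocytes attach, was at 11670, 9622 and 7578 CPM in Itga8+ MSCs (9624 ± 2047), at 4448, 2535 and 3165 CPM in Itga8- BLCs (3383 ± 975) and at 5556, 6369 and 7848 CPM in Sca-1+ MSCs (6591 ± 1162). CD51+CD140a+ MSCs had 17.57, 4.529 and 60.11 CPM. All libraries from bone fragments were thus at 2535 CPM or more, and all libraries from flushed marrow at 60.11 CPM or less. Sca-1+ MSCs exceeded CD51+CD140a+ MSCs 240.5-fold (log2 7.91 ± 0.86, FDR 5.37e-05), Itga8+ MSCs 351-fold (log2 8.46 ± 0.88, FDR 3.53e-05) and Itga8- BLCs 123.5-fold (log2 6.95 ± 0.83, FDR 8.6e-05). Without replicate 3 of CD51+CD140a+ MSCs, the highest of its group, these became 9.22, 9.77 and 8.26 on the log2 scale. Itga8- libraries were all below both the Itga8+ and the Sca-1+ libraries, but the log2 difference had an FDR of 0.369 (Itga8+ over Itga8-, 1.51 ± 0.65) and 0.308 (Itga8- over Sca-1+, -0.96 ± 0.64). Its window, shown above, was the only one of the 3 printed with TATAAA, and a link of these letters to its level was not tested.

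Prg4 (chr1:150449412-150466165, minus strand), the lubricin gene of superficial articular chondrocytes and synovial lining cells, was at 739.7, 1367 and 1135 CPM in Sca-1+ MSCs (1081 ± 317), against 188.3, 203.1 and 128.3 CPM in Itga8+ MSCs, 198.5, 401.1 and 303.4 CPM in Itga8- BLCs and 16.72, 22.87 and 23.94 CPM in CD51+CD140a+ MSCs. Each Sca-1+ library was above all libraries of the other populations, and each CD51+CD140a+ library below them. The log2 fold change was -2.64 ± 0.35 for Itga8+ MSCs over Sca-1+ MSCs (FDR 0.000564), -1.84 ± 0.34 for Itga8- BLCs over Sca-1+ MSCs (FDR 0.00316) and 5.67 ± 0.41 for Sca-1+ over CD51+CD140a+ MSCs (FDR 3.02e-06). The exons of Prg4 share 4.77% of their bases with Tpr on the opposite strand.

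Counted together, the members were called (FDR under 0.1 and fold above 2) as follows, beside the share of all genes called in the same direction. In Itga8+ MSCs over Sca-1+ MSCs, 7 of 10 members were higher (12.9% of all genes) and 1, Prg4, was lower (8.89%). In Itga8- BLCs over Sca-1+ MSCs, 7 were again higher (14.5%) and Prg4 lower (11.9%), with Sox6 and Chad not called. In these 2 comparisons the median log2 fold change of the members was 2.08 and 2.40, against 0.16 and 0.12 over all genes.

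Against CD51+CD140a+ MSCs, 9 members were higher in Itga8+ MSCs (21.2% of all genes), 10 in Itga8- BLCs (20.4%) and 7 in Sca-1+ MSCs (11.2%), and none was lower (14.3%, 14.9% and 9.30% of all genes). The members' medians were 4.93, 4.95 and 1.93 on the log2 scale, against 0.18, 0.09 and -0.003 over all genes. In Sca-1+ MSCs over CD51+CD140a+ MSCs the members not called were Cnmd, Matn1 and Matn3. Comparisons with a population in common share its libraries.

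Between Itga8+ MSCs and Itga8- BLCs, edgeR called 0 of 10 members, with 1.66% of all genes called higher and 2.16% lower in Itga8+ MSCs. Before adjustment 3 of them (Sox6, Prg4 and Chad) had a p under 0.05, and DESeq2 and limma-trend also called 0 members and had 3 at that level. Sox6 and Chad were higher in Itga8+ MSCs and Prg4 lower. A p that misses the threshold does not show that the populations have like levels, and the SE of the log2 difference was 0.31 to 0.99 over the members.

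**Figure D2:**
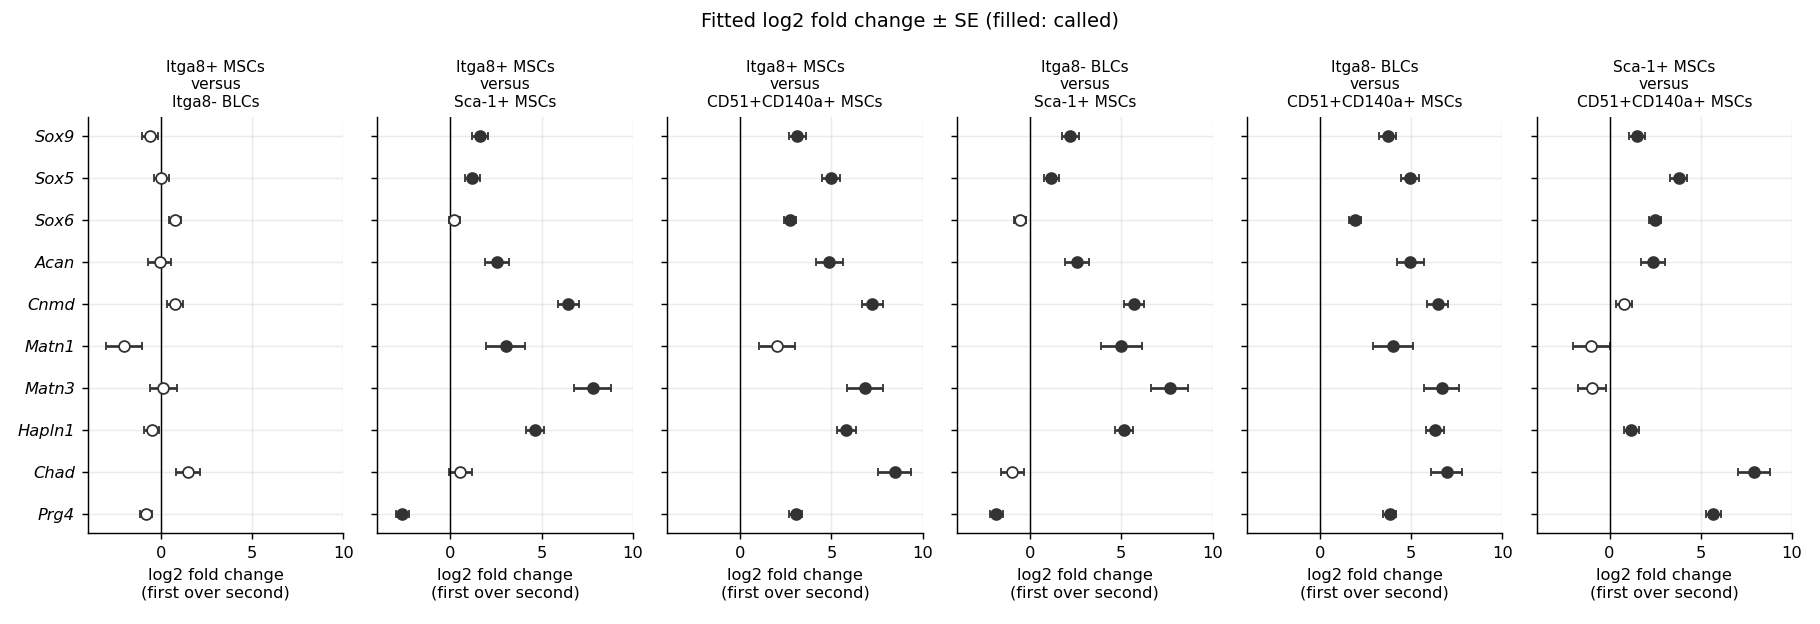
Fitted log2 fold change of each member (horizontal axis, first population over second) with its SE in the 6 comparisons, filled where the member was called. Open symbols fill the panel of Itga8+ MSCs versus Itga8- BLCs, Prg4 lies left of 0 in both panels against Sca-1+ MSCs, and no member called against CD51+CD140a+ MSCs lies left of 0.

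Levels can be compared between genes only per unit length, here as TPM (the share of a library's transcripts, after division by length) over the exons of each gene in GENCODE M21. In Itga8+ MSCs mean TPM ran from Chad (19270) and Cnmd (13620) through Matn3 (4742), Hapln1 (593), Acan (386), Sox9 (381) and Prg4 (133) to Matn1 (22.6), Sox5 (17.4) and Sox6 (8.11). In Itga8- BLCs Cnmd (7556) stood above Chad (6024) and Matn3 (3606), and Matn1 (79.5) above Sox5 (15.5). In Sca-1+ MSCs Chad at 14550 TPM was followed by Prg4 at 936.7 TPM, with Cnmd at 183 TPM and Matn3 at 21.9 TPM. The largest mean in CD51+CD140a+ MSCs was that of Cnmd, 114 TPM, and Sox5 was at 0.691 TPM.
With the length of the longest transcript in place of all exons (chosen once the data were known), Sox5 at 26.6 TPM stood above Matn1 at 17.4 TPM in Itga8+ MSCs, while the orders named for the other populations held. Sox9 exceeded Sox5 and Sox6 in TPM in every population by either length. Population order by mean TPM was the same as by mean CPM for 9 of 10 members, the exception being Acan, whose Alcam+ populations changed places.

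**Figure D3:**
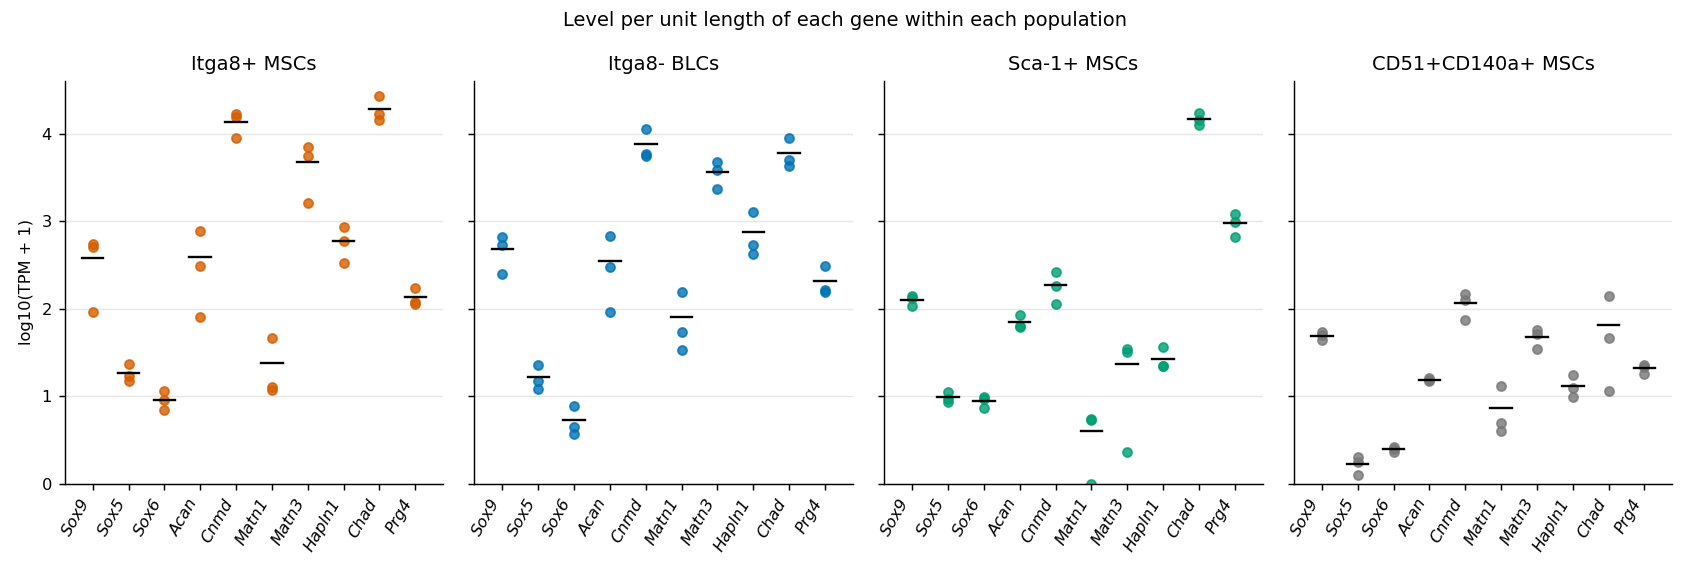
Level per unit length, as log10(TPM + 1) on the vertical axis, of the 10 members within each population, with 1 point per library and a bar at the mean. Chad stands near the top in the 3 bone fragment populations and at a mean of 64.6 TPM in CD51+CD140a+ MSCs, while Prg4 is the next highest in Sca-1+ MSCs.

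The libraries of each Alcam+ population differed from each other by gene length. Over all genes, those with exons under 2 kb (4358 genes) deviated from their population mean by a median of 0.67 on the log2 scale in replicate 2 of Itga8+ MSCs and by 0.38 in replicate 3 of Itga8- BLCs, while genes over 6 kb (4730 genes) deviated by -0.52 and -0.35. Replicate 3 of Itga8+ MSCs and replicate 2 of Itga8- BLCs had the opposite signs, at -0.43 and -0.36 for short genes and 0.47 and 0.48 for long genes. In Sca-1+ and CD51+CD140a+ MSCs the deviations of both classes lay between -0.08 and 0.08. Acan (7.5 kb) was lowest in the first pair of libraries and highest in the second, as were Col2a1 and Col11a2. Lowest in the first pair as well were the shorter Matn3 (3014 exon bases), Col9a2 (3095), Col9a3 (3853) and Sox9 (4135). Genes of 2 to 4 kb deviated in that pair by medians of 0.12 and 0.11, and genes of 4 to 6 kb by -0.32 and -0.18. Cnmd (1.8 kb) was highest in replicate 2 of Itga8+ MSCs. The other short members did not follow the trend, since Chad (1.7 kb) and Matn1 (2.0 kb) were highest in replicate 1 of Itga8+ MSCs, and in Itga8- BLCs Cnmd and Chad were highest in replicate 1 and Matn1 in replicate 2. Sox5 and Sox6, with the longest exons of the members, did not take this pattern in Itga8+ MSCs, where Sox5 in replicate 2 was 0.29 above its mean. Replicate 2 of Itga8+ MSCs also held the most myeloid and lymphoid and the most erythroid marker RNA, and the part of these cells in the members' levels was not tested. With the length trend removed (tried once the data were known), the members called in the 6 comparisons numbered 0, 8, 9, 8, 10 and 7, the counts given above (higher and lower together), while the genes called among all 18648 went from 712, 4055, 6631, 4930, 6578 and 3827 to 933, 5006, 7272, 5693, 7231 and 4159. Leaving out replicate 2 of Itga8+ MSCs and replicate 3 of Itga8- BLCs gave 0, 7, 9, 8, 10 and 7 members, beside 659, 3684, 5707, 4992, 6227 and 4524 of 18192 genes.

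**Figure D4:**
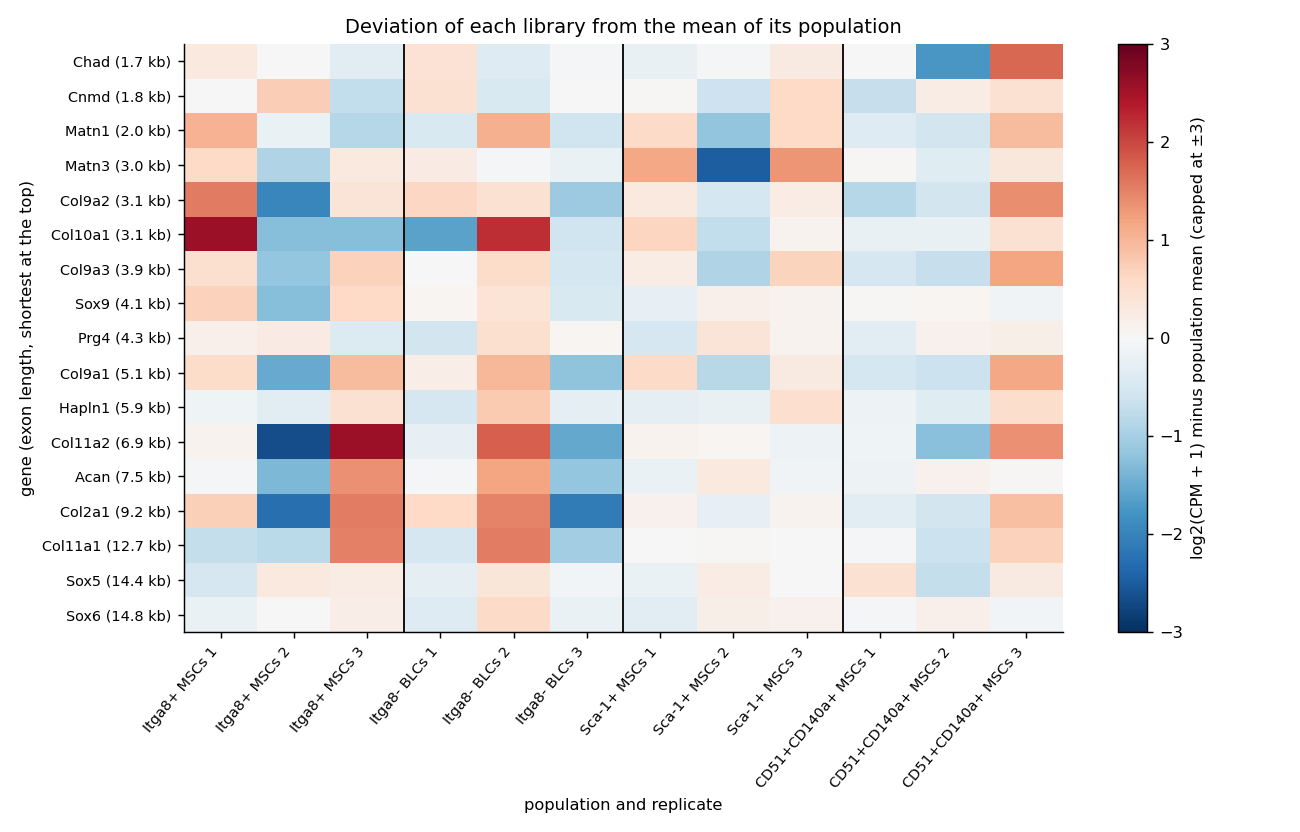
Deviation of each library from the mean of its population in log2(CPM + 1) (colour, capped at 3 either way), for the members and the cartilage collagens (rows, in order of exon length) in the 12 libraries (columns). Acan, Col2a1 and Col11a2 are blue in replicate 2 of Itga8+ MSCs and replicate 3 of Itga8- BLCs and red in replicate 3 and replicate 2 of the same populations. Among the Sca-1+ columns Matn3 in replicate 2 is the darkest cell.

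The cartilage collagens, which include the chains of collagen II, IX and XI, followed the main pattern of the members. Of 7, 6 were higher in Itga8+ MSCs and 6 in Itga8- BLCs than in Sca-1+ MSCs, 6 and 7 than in CD51+CD140a+ MSCs, and 1 (Col10a1) in Sca-1+ MSCs than in CD51+CD140a+ MSCs. The shares of all genes called higher were 12.9%, 14.5%, 21.2%, 20.4% and 11.2%, in that order. The 1 call was near the last share. Between Itga8+ MSCs and Itga8- BLCs edgeR called 0, with 1 (Col10a1) at an unadjusted p under 0.05. Col2a1, the chain of collagen II, was at 60210, 7596 and 105500 CPM in Itga8+ MSCs, 34290, 63150 and 5269 CPM in Itga8- BLCs, 972.6 to 1247 CPM in Sca-1+ MSCs and 394.6 to 1089 CPM in CD51+CD140a+ MSCs. The spread of Col2a1 within each Alcam+ population was thus over 10-fold, and its log2 fold change over Sca-1+ MSCs was 5.65 ± 1.04 in Itga8+ MSCs (FDR 0.00388). Col9a3 differed from Sca-1+ MSCs by 6.63 ± 0.77 in Itga8+ MSCs (FDR 0.000278), and Col9a2 from CD51+CD140a+ MSCs by 7.17 ± 1.03 in Itga8- BLCs (FDR 0.00033). Col10a1, the collagen of hypertrophic cartilage, was at 12.7, 191.9 and 26.38 CPM in Itga8- BLCs and at 13.26, 0 and 0 CPM in Itga8+ MSCs, which overlapped.

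Among 11 other secreted proteins of cartilage, the 11 were higher in Itga8+ MSCs and in Itga8- BLCs than in CD51+CD140a+ MSCs, and 8 in Sca-1+ MSCs (21.2%, 20.4% and 11.2% of all genes). Against Sca-1+ MSCs 6 were higher in either Alcam+ population (12.9% and 14.5%). In Itga8+ MSCs 0 were lower (8.89%) and in Itga8- BLCs 2 (11.9%). Those 2 were Cilp and Cilp2, the cartilage intermediate layer proteins. Cilp was at 9445 to 10600 CPM in Sca-1+ MSCs, 902.9 to 9688 CPM in Itga8+ MSCs and 243.4 to 882.6 CPM in Itga8- BLCs, and it was the 1 gene of the list called between Itga8+ MSCs and Itga8- BLCs (3.14 ± 0.85, FDR 0.0872). That call does not pass an FDR of 0.05, and Cilp varied widely within Itga8+ MSCs (4585 ± 4561 CPM, SD). Cytl1, a small secreted protein, was at 350.1 to 535.4 CPM in Sca-1+ MSCs and at 0.02866 to 0.2899 CPM in CD51+CD140a+ MSCs. Ucma, a protein of upper growth plate cartilage, followed Cnmd and Matn3 instead, with 5.256 to 10.07 CPM in Sca-1+ MSCs and 328.4 to 1693 CPM in Itga8+ MSCs (log2 6.89 ± 0.70, FDR 0.000132).

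Relatives of the members within their families did not all move with them. Of 12 listed, 10 were tested (Ncan and Hapln2 were not), and 5 were higher and 2 lower in Itga8+ MSCs, and 6 higher and 2 lower in Itga8- BLCs, than in Sca-1+ MSCs. Of all genes, 12.9% were higher and 8.89% lower in the first comparison, and 14.5% and 11.9% in the second. Vcan, the aggrecan relative of loose connective tissue, was at 445.7 to 537 CPM in Sca-1+ MSCs and 5.142 to 9.938 CPM in Itga8+ MSCs, a log2 fold change of -6.13 ± 0.60 (FDR 0.000109). Tnmd, the tendon relative of Cnmd, was at 638.7, 5327 and 1536 CPM in Itga8+ MSCs against 20.34 to 33.75 CPM in Itga8- BLCs. Bcan, the aggrecan relative known from brain, was at 25.95 to 43.47 CPM in Itga8- BLCs and at most 0.5778 CPM in Itga8+ MSCs, and Tnmd and Bcan were the calls of the list between the Alcam+ populations. Hapln4 was at 24.15 to 64.32 CPM in Itga8- BLCs and at most 2.424 CPM elsewhere. Against CD51+CD140a+ MSCs 4, 7 and 5 relatives were higher in Itga8+ MSCs, Itga8- BLCs and Sca-1+ MSCs (21.2%, 20.4% and 11.2% of all genes), and 0 lower (14.3%, 14.9% and 9.30%).

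Regulators of the growth plate and joint were higher for 7 of 15 in Itga8+ MSCs and 8 in Itga8- BLCs than in Sca-1+ MSCs, and 1 was lower in each. Of all genes, 12.9% and 14.5% were higher and 8.89% and 11.9% lower, so the lower calls did not exceed the share of all genes. Against CD51+CD140a+ MSCs the counts were 7 higher and 2 lower in Itga8+ MSCs (21.2% and 14.3% of all genes). They were 10 and 0 in Itga8- BLCs (20.4% and 14.9%), and 6 and 4 in Sca-1+ MSCs (11.2% and 9.30%). The 2 lower calls in Itga8+ MSCs were near the share of all genes. In Itga8+ MSCs 3 were lower than in Itga8- BLCs (2.16% of all genes). Runx2, a factor of osteoblasts and hypertrophic chondrocytes, was at 15.19 to 24.73 CPM in Itga8+ MSCs, 35.91 to 93.41 CPM in Itga8- BLCs, 1.687 to 3.561 CPM in Sca-1+ MSCs and 60.11 to 91.72 CPM in CD51+CD140a+ MSCs. The log2 difference between Itga8+ MSCs and Itga8- BLCs was -1.78 ± 0.41 (FDR 0.0419). Foxa3, a forkhead factor of hypertrophic chondrocytes, was at 10.34 to 22.56 CPM in Itga8+ MSCs and 0.3561 to 1.494 CPM in Sca-1+ MSCs (log2 3.999 ± 0.80, FDR 0.00608). Pthlh, the ligand that delays hypertrophy, was at 25.42 to 55.21 CPM in Itga8+ MSCs and 53.83 to 73 CPM in Sca-1+ MSCs, which did not differ beyond their spread (FDR 0.563), and was at most 0.9665 CPM in CD51+CD140a+ MSCs. Bmpr1b, a bone morphogenetic protein receptor, had 0 counts in all CD51+CD140a+ libraries and 18.2 to 35.24 CPM in Sca-1+ MSCs.

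The enzymes and transporters that build the chondroitin sulfate chains of aggrecan were called higher for 9 of 21 in each Alcam+ population over Sca-1+ MSCs, with 1 lower in Itga8+ MSCs and 3 lower in Itga8- BLCs (of all genes, 12.9% and 14.5% were higher and 8.89% and 11.9% lower). Over CD51+CD140a+ MSCs 11 were higher and 3 lower in Itga8+ MSCs (21.2% and 14.3% of all genes), 9 and 3 in Itga8- BLCs (20.4% and 14.9%), and 4 and 2 in Sca-1+ MSCs (11.2% and 9.30%). The lower calls over CD51+CD140a+ MSCs were thus near the share of all genes. Papss2, which makes the sulfate donor, was at 289.9 to 928.8 CPM in Itga8+ MSCs and 85.37 to 90.11 CPM in Sca-1+ MSCs (log2 2.94 ± 0.44, FDR 0.00108). The chondroitin 4-sulfotransferase gene Chst11 was at 47.89 to 73.15 CPM in Itga8+ MSCs, 76.2 to 133.9 CPM in Itga8- BLCs and 4.967 to 6.104 CPM in Sca-1+ MSCs. Its relative Chst13 was the 1 gene of the list called between the Alcam+ populations, at 2.484 to 5.038 CPM in Itga8+ MSCs and 36.5 to 77.64 CPM in Itga8- BLCs (log2 -3.84 ± 0.53, FDR 0.0021). Chst7, a 6-sulfotransferase, went the other way from Chst11, with 12.89 to 19.31 CPM in Sca-1+ MSCs and 1.633 to 2.253 CPM in Itga8+ MSCs (log2 -3.04 ± 0.38, FDR 0.00038).

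Of 12 genes of aggrecan and hyaluronan turnover, a list of synthases, a receptor, proteases and an inhibitor, the test against Sca-1+ MSCs called 1 higher and 6 lower in Itga8+ MSCs (12.9% and 8.89% of all genes). Against CD51+CD140a+ MSCs 4 were higher and 6 lower in Itga8+ MSCs (21.2% and 14.3%), and against Itga8- BLCs 0 higher and 3 lower (1.66% and 2.16%). In Itga8- BLCs 1 was higher and 4 lower than in Sca-1+ MSCs (14.5% and 11.9%) and 4 higher and 5 lower than in CD51+CD140a+ MSCs (20.4% and 14.9%), and in Sca-1+ MSCs 5 were higher and 3 lower than in CD51+CD140a+ MSCs (11.2% and 9.30%). Has1, a hyaluronan synthase, had the population order of Prg4, at 2114 to 3056 CPM in Sca-1+ MSCs, 365.6 to 755.3 CPM in Itga8- BLCs, 190.3 to 255.1 CPM in Itga8+ MSCs and 1.29 to 2.104 CPM in CD51+CD140a+ MSCs. Mmp13, a collagenase of collagen II, was highest in CD51+CD140a+ MSCs (351.8 to 609.9 CPM) and lowest in Itga8+ MSCs (5.244 to 11.95 CPM), a log2 difference of -6.03 ± 0.68 (FDR 6.14e-05). Adamts15, an aggrecanase, was at 16.49 to 97.99 CPM in Sca-1+ MSCs and 0.3116 to 2.196 CPM in Itga8+ MSCs (log2 -5.45 ± 1.07, FDR 0.00565). Mmp3, or stromelysin, was at 55.61 to 218.4 CPM in the 3 bone fragment populations and at most 0.02732 CPM in CD51+CD140a+ MSCs.

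Markers of cells found near cartilage were read beside the members. The shares of all genes called in each comparison, given above for the members, apply to these counts too. Chondrocyte markers outside the members were called higher for 8 of 9 in Itga8+ MSCs and in Itga8- BLCs over Sca-1+ MSCs, for 8 and 9 over CD51+CD140a+ MSCs, for 2 in Sca-1+ MSCs over CD51+CD140a+ MSCs, and for 0 between the Alcam+ populations by edgeR (2 at an unadjusted p under 0.05). This list of 9 holds the 7 collagens above, with Snorc and Ucma. Their summed level was 13640 to 127700 CPM in Itga8+ MSCs, 12610 to 90980 CPM in Itga8- BLCs, 1320 to 1673 CPM in Sca-1+ MSCs and 543.2 to 1597 CPM in CD51+CD140a+ MSCs, and Col2a1, Col9a3 and Col11a1 led the list. The chondrocyte markers were thus present in both populations labelled by Alcam, including the Itga8- BLCs labelled as osteoblasts.

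Osteoblast markers were called between the Alcam+ populations. All 10, Runx2 among them, were lower in Itga8+ MSCs than in Itga8- BLCs, summed to 697.3 to 7981 CPM and 36960 to 115400 CPM, and were led by Col1a1, Ibsp and Bglap. Against Sca-1+ MSCs 5 were higher and 1 lower in Itga8+ MSCs and 8 higher and 0 lower in Itga8- BLCs. Against CD51+CD140a+ MSCs 1 was higher and 5 lower in Itga8+ MSCs, 7 and 1 in Itga8- BLCs, and 1 and 7 in Sca-1+ MSCs. The summed level was 15630 to 19490 CPM in Sca-1+ MSCs and 8283 to 17490 CPM in CD51+CD140a+ MSCs.

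Tendon markers, led by Fmod, Thbs4 and Tnmd (also listed above as a relative of Cnmd), were higher for 5 of 6 in Itga8+ MSCs than in Itga8- BLCs, with summed levels of 12900 to 23550 CPM and 3788 to 6396 CPM. In Sca-1+ MSCs they summed to 6266 to 9352 CPM, with 2 higher in Itga8+ MSCs and 3 lower in Itga8- BLCs. Over CD51+CD140a+ MSCs, at 83.39 to 112.9 CPM, 6 were higher in Itga8+ MSCs, 5 higher and 1 lower in Itga8- BLCs, and 5 higher in Sca-1+ MSCs. Chad and Cnmd, whose products are also known from tendon, had their highest means in Itga8+ MSCs, and the part of tendon cells in their levels was not tested.

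Synovial and articular lining markers were, like Prg4, highest in Sca-1+ MSCs. In Sca-1+ MSCs 5 of 6 were above Itga8+ MSCs, 5 above Itga8- BLCs and 6 above CD51+CD140a+ MSCs, with a summed level of 758.9 to 949 CPM in Sca-1+ MSCs, 25.77 to 56.6 CPM in Itga8+ MSCs, 37.29 to 49.75 CPM in Itga8- BLCs and 19.61 to 26.83 CPM in CD51+CD140a+ MSCs. Over CD51+CD140a+ MSCs, where Prg4 was called in both Alcam+ populations, 2 of 6 were higher in Itga8+ MSCs (median log2 fold change 0.75) and 4 in Itga8- BLCs (1.39), and edgeR called 0 between the Alcam+ populations (1 at an unadjusted p under 0.05). Cd55 was at 343.6 to 363 CPM, Htra4 at 232.5 to 394.7 CPM and Tspan15 at 82.72 to 97.65 CPM in Sca-1+ MSCs. The part of lining cells in the Prg4 level of Sca-1+ MSCs was not tested.

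The remaining marker lists were of cells outside cartilage, and their counts stand beside the same shares of all genes. LepR+ stroma markers, led by Cxcl12, Lepr and Adipoq, summed to 44720 to 61180 CPM in CD51+CD140a+ MSCs and at most 739.6 CPM elsewhere, with 6, 5 and 6 of 6 lower in Itga8+ MSCs, Itga8- BLCs and Sca-1+ MSCs. Between Itga8+ and Sca-1+ MSCs 1 was higher and 2 lower, between Itga8- BLCs and Sca-1+ MSCs 2 and 3, and between the Alcam+ populations 0 (2 at an unadjusted p under 0.05). Myeloid and lymphoid markers (7 of 8 tested, Cd3e not, led by Mpo, Lyz2 and Elane) were higher for 6 in Itga8+ MSCs and 5 in Itga8- BLCs than in Sca-1+ MSCs, for 6 in each than in CD51+CD140a+ MSCs, and for 1 in Sca-1+ than in CD51+CD140a+ MSCs. Between the Alcam+ populations edgeR called 0, and 0 had an unadjusted p under 0.05. They summed to 2296 to 11830 CPM in Itga8+ MSCs, 4334 to 6479 CPM in Itga8- BLCs, 869.8 to 1713 CPM in Sca-1+ MSCs and 971.3 to 1684 CPM in CD51+CD140a+ MSCs, although all populations were sorted as CD45-. By population these markers were thus higher where the members high in the Alcam+ populations were. Within Itga8+ MSCs they were highest in replicate 2, where Sox9, Acan, Matn3 and Hapln1 were lowest and Cnmd and Sox5 highest. The part of these marker cells in the members' levels was not tested. Endothelial markers summed to 73.66 to 111.3 CPM in Sca-1+ MSCs and 11.34 to 29.09 CPM elsewhere, with at most 2 of 6 called in any comparison. Skeletal muscle markers (4 of 6 tested) were by population also higher in the Alcam+ populations. Of 4, 3 were called higher in Itga8+ MSCs against either of Sca-1+ and CD51+CD140a+ MSCs. In Itga8- BLCs 1 and 2 were higher against the same populations, and 1 was higher in Sca-1+ than in CD51+CD140a+ MSCs. Between the Alcam+ populations edgeR called 0 (1 at an unadjusted p under 0.05). They summed to 14.05 to 39.94 CPM in Itga8+ MSCs, 5.216 to 12.05 CPM in Itga8- BLCs and 1.687 to 3.743 CPM in the other populations, and their part in the members' levels was not tested. Erythroid markers summed to 1555 CPM in replicate 2 of Itga8+ MSCs and 117.5 to 415.4 CPM in all other libraries, with 0 called by edgeR in any comparison and 0 at an unadjusted p under 0.05.

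Genes whose profile over the 12 libraries lay nearest to a member were found among 15153 genes, by the root mean square (RMS) difference of log2(CPM + 1) after centring each gene. They were Cacnb3 and Gm38391 for Sox9 (RMS 0.359 and 0.375), B230206H07Rik and Smpdl3b for Sox5 (0.473 and 0.487), and Filip1 and Bhlhe40 for Sox6 (0.368 and 0.371). For the matrix genes they were Edil3 and Lrp8 for Acan (0.364 and 0.49), Slc38a3 and Mpzl2 for Hapln1 (0.405 and 0.516), Panx3 and Tmie for Matn1 (0.609 and 0.791), and Col9a3 and Col9a1 for Matn3 (1.01 and 1.33). The remaining pairs were Ncmap and R3hdml for Cnmd (0.568 and 0.58), Anxa8 and Comp for Chad (0.781 and 0.926), and Clip4 and Ndrg4 for Prg4 (0.472 and 0.502). Comp, a matrix protein of cartilage and tendon, was like Chad high in all 3 bone fragment populations, at 4646 to 9170 CPM in Itga8+ MSCs, 3980 to 5223 CPM in Itga8- BLCs and 7655 to 8527 CPM in Sca-1+ MSCs, against 36.69 to 146.8 CPM in CD51+CD140a+ MSCs. With a pseudocount of 4 in place of 1, 7 of these 20 genes were kept, so most of the list depends on that choice.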

How the data were processed

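Full-length cDNA (SMART-Seq v4) was tagmented (Nextera XT) and sequenced on a NextSeq. Per the labels and the study's methods, the authors aligned reads to mm10 and deposited 1 table of read counts per gene and library, with no normalization. Submitters' processing notes name FastQC 0.11.7, Trimmomatic 0.38, HISAT2 2.1.0, SAMtools 1.9 and featureCounts 1.6.3, while the methods text names TopHat and Bowtie2. The annotation release and strand setting are not given in the sources used here. All 12 libraries were fitted in 1 edgeR 4.0.16 quasi-likelihood model (R 4.3.3) with TMM normalization over the 18648 genes at 0.5 CPM or more in at least 1 library, and the 6 pairs of populations were compared with tests adjusted over all genes. The script was tested on simulated data. DESeq2 1.42.0 and limma-trend (limma 3.58.1) were run beside it. CPM used TMM-scaled totals and TPM used GENCODE M21 exon lengths. GENCODE M21 lists 49326 of the 49585 genes. An exact permutation test of 3 libraries against 3 cannot go below p = 0.1 and was not used. Totals were 17580677 to 31332475 counts. Libraries of a population differed by more than counting error (chi-square per gene 19.7 to 597), and none was a copy of another. Besides the members, the named genes were up to 4 per pathway list, called with the widest log2 fold change and at 5 CPM or more, the 3 most abundant genes of each marker list described, and the 2 nearest profiles per member. Comp is named as a nearest profile, Itga8, Alcam, Ly6a, Itgav and Pdgfra are named as sort genes, and Col11a2 was named after its values were seen. Members and lists were chosen with earlier results of these data known. Other settings tried were those tools, scaling by RLE or by library totals, 2 other filters, fits of just the populations compared, a replicate block, a stricter FDR of 0.05 and the omission of each library in turn.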

Additional observations from a re-analysis of the deposited data

How the results depend on the processing

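Of 60 pairs of a member and a comparison, 42 were called, 37 of these in each of the 23 alternatives, and none of the 42 changed sign. The 5 that lost the call in some alternative were Sox5 in both Alcam+ populations over Sca-1+ MSCs, Matn1 in Itga8+ over Sca-1+ MSCs, and Sox9 and Hapln1 in Sca-1+ over CD51+CD140a+ MSCs. Members called ranged from 6 to 8 (Itga8+ over Sca-1+, 8 as reported), 9 to 10 (Itga8+ over CD51+CD140a+, 9 as reported), 7 to 8 (Itga8- over Sca-1+, 8 as reported), 10 to 10 (Itga8- over CD51+CD140a+) and 6 to 7 (Sca-1+ over CD51+CD140a+, 7 as reported). Between Itga8+ MSCs and Itga8- BLCs the count was 0 except with library totals alone, where Sox6 gave 1 (log2 fold change 1.05, FDR 0.0939). Matn1 in Itga8+ over CD51+CD140a+ MSCs gained the call with DESeq2 (FDR 0.0901), with only the populations compared (0.0983) and without replicate 3 of Itga8+ MSCs (0.0921) or replicate 2 of Sca-1+ MSCs (0.0575). Single genes outside the members were not followed in these alternatives.

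By limma-trend the log2 fold changes of 3 members were wider than by edgeR, namely Matn3 over Sca-1+ MSCs (8.62 in Itga8+ MSCs and 8.59 in Itga8- BLCs), Matn1 over Sca-1+ MSCs (3.75 and 5.77, in the same order) and Chad over CD51+CD140a+ MSCs (9.12, 7.60 and, in Sca-1+ MSCs, 8.585).

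Signs that turned were all of uncalled log2 differences between Itga8+ MSCs and Itga8- BLCs, and the cause was not tested. Leaving out 1 library gave -0.092 to 0.251 for Sox5 (0.03 with all libraries), -0.994 to 0.739 for Acan (-0.06 with all libraries), -0.171 to 0.495 for Matn3 (0.15 with all libraries) and -0.765 to 0.018 for Hapln1 (-0.50 with all libraries). Acan was 0.20 with library totals alone, and Sox5 was -0.14 without both Itga8+ replicate 2 and Itga8- replicate 3. Under the replicate block Matn3 was -0.085, and 0, 6, 9, 7, 10 and 7 members were called in the 6 comparisons (433, 2878, 5450, 4168, 5754 and 3254 of all genes), with Sox5 (FDR 0.136 and 0.116) and Matn1 (FDR 0.125) losing their calls over Sca-1+ MSCs in Itga8+ MSCs and, for Sox5, in Itga8- BLCs. Deviations of same-numbered libraries correlated at -0.582 to 0.204. They are taken from means of 3 libraries and carry the length trend. They thus cannot show whether same-numbered libraries share animals or preparation. Between the Alcam+ populations the strongest correlations were across numbers, at 0.59 for Itga8+ replicate 2 with Itga8- replicate 3 and 0.617 for Itga8+ replicate 3 with Itga8- replicate 2, the libraries that shared the sign of the length trend. By library totals alone mean CPM in CD51+CD140a+ MSCs moved by more than 1 SD for Sox9 (54.83), Sox6 (6.08) and Acan (29.7). Amplified reads are not independent molecules. The 3 libraries of a population limit what can be called, and low levels such as Matn1 in Sca-1+ MSCs (0 to 2.39 CPM) rest on few reads.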
